A study of Mus musculus with 6 samples.

Results

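The piRNA pathway was followed in induced pluripotent stem cells (iPSCs) of the mouse, through the transcripts of 10 of its genes: Piwil2, Pld6, Mov10l1, Gtsf1, Mael, Asz1, Tdrkh, Tdrd1, Tdrd5 and Tex19.1. The 10 genes were chosen by gene name from the count table of 48440 genes, of which 25600 had a count and 14664 passed the filter on low counts. All 10 passed that filter. RNA with a poly(A) tail had been sequenced from 3 clones with a Cas9 knockout of Tet1 (KO; clones 14, 30 and 33, replicates 1 to 3) and 3 non-targeted clones (NT; clones 49, 51 and 52, replicates 1 to 3). The labels give the knockout clones the genotype wt/wt;GFP/wt followed by Tet1 Cas9 mut/mut, and the non-targeted clones wt/wt;GFP/wt. All 6 are male, carry the strain label B6- Tet1tm1Kohx together with B6;CBA-Tg(Pou5f1-EGFP)2Mnn/J, descend from the line iPSC34.3, reprogrammed from wild-type embryonic fibroblasts, and are labelled as sequenced in the same batch. The labels describe the same handling for every clone, with 14 passages in KSR medium, transfection of Cas9 ribonucleoprotein, a guide RNA against Tet1 and a single-stranded donor oligonucleotide, 12 h of an agent that favours homology-directed repair, and 4 further passages before growth on mouse embryonic fibroblast feeders and removal from them. They do not say what set the non-targeted clones apart during that treatment. Each library is 1 clone, so a p-value here speaks only of the spread among clones of a single parental line.

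piRNAs are small RNAs that guide PIWI proteins to the transcripts of transposable elements, which the PIWI protein cuts or, in the nucleus, marks for DNA methylation. In mouse germ cells the precursors are unwound and cut at the outer surface of mitochondria, and Tudor-domain proteins hold PIWI proteins in granules known as nuage. Many genes of the pathway are germline genes with CpG-rich promoters that are methylated and silent in somatic tissues. Tet1 encodes a dioxygenase that oxidises 5-methylcytosine, the modified base at methylated CpG sites.

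The promoter sequences of 5 of the genes are shown, chosen to cover both directions of change and the most abundant member. They hold CpG sites, the kind of site on which methyltransferases and TET enzymes act. These RNA libraries did not measure methylation there. Each sequence is the 250 bases before a RefSeq start (GRCm38.p6), written 5′ to 3′ on the strand of the gene, with CG dinucleotides in capitals. In the DESeq2 test, Gtsf1 and Asz1 were lower in KO clones, Tdrkh and Tdrd1 (the second of its 3 windows) were higher, and Tex19.1 did not pass. In edgeR, the main test, 0 of the 10 genes passed.
Gtsf1, chr15:103430428-103430677, minus strand: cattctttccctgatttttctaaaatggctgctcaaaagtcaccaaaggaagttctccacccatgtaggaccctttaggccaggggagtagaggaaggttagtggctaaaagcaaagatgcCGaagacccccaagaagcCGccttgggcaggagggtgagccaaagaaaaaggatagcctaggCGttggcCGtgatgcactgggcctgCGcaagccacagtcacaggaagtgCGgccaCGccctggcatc
Asz1, chr6:18109062-18109311, minus strand: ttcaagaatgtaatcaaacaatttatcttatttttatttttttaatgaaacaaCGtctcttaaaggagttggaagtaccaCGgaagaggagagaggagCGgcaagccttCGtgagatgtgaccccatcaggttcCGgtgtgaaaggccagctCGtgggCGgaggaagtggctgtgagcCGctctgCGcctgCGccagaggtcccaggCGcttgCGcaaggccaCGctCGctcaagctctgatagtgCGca
Tdrkh, chr3:94412994-94413243, plus strand: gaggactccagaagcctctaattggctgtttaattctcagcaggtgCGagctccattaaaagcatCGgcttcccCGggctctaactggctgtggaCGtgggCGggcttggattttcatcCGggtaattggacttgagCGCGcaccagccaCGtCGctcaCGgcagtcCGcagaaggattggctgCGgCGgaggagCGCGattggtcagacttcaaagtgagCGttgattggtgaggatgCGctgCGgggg
Tdrd1, chr19:56826025-56826274, plus strand: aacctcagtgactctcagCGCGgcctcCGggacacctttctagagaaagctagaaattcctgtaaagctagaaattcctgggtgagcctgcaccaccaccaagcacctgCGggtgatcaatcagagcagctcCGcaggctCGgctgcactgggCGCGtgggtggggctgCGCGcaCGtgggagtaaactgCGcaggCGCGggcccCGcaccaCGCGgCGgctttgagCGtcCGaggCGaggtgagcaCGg
Tex19.1, chr11:121145893-121146142, plus strand: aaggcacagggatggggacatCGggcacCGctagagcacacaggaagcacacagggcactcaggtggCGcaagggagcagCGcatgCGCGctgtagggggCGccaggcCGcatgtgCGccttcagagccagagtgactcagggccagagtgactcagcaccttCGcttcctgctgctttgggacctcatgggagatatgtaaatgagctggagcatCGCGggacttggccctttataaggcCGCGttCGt

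The 4 promoters shown for genes called in DESeq2 differ in CpG content. Gtsf1 holds 7 CG dinucleotides with an observed to expected ratio of 0.38. Asz1 holds 15 (ratio 0.90), Tdrkh 19 (0.92), the shown window of Tdrd1 22 (0.86) and Tex19.1 15 (0.64). Windows 1 and 3 of Tdrd1 hold 11 (0.53) and 3 (0.25), so its place among these genes depends on the window. Over all 32807 windows of this length the median was 6 CG dinucleotides, and over the 12 windows found for 9 of the 10 genes it was 16.5 (range 3 to 40). Piwil2 was not matched. The hexamer CACGTG, known as an E-box, was found in windows of Mael, Mov10l1, Tdrd1 and Pld6, in 5 of 12 windows (41.7%), of which the 2 of Tdrd1 overlap and share 1 site, against 6.02% of all windows. TCCCGC, the core of a known E2F motif, searched on both strands, was found in those of Mael, Tdrd5 and Tex19.1 (25% of the 12 windows, against 16.9% of all). Neither motif lies in the windows of Gtsf1, Asz1 or Tdrkh. Both motifs hold a CG dinucleotide, and the 12 windows are richer in CG than all windows, which these shares do not allow for.

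Depth was similar between libraries, with 11937909 to 13672879 counts in KO clones and 12564763 to 16189554 in NT clones. Tet1 (chromosome 10, 62804570 to 62899118) had 365, 231 and 288 CPM (counts scaled for library size with TMM factors) in KO clones, against 1158, 966 and 1034 CPM in NT clones (log2 fold change -1.84 ± 0.16; edgeR adjusted p = 0.0703; DESeq2 adjusted p = 9.43e-20). All 10 markers of pluripotent cells were detected in every library, with summed levels of 2575 to 4680 CPM in KO clones and 4314 to 4966 CPM in NT clones. Markers of the feeder fibroblasts summed to 1549 to 2033 CPM in KO clones and 1619 to 1970 CPM in NT clones, with none of the 17 at 0. Fn1 alone gave 697 to 1419 CPM of the KO sums and 1114 to 1489 CPM of the NT sums. In log2 CPM relative to the NT mean, the fibroblast list median was 0.68, 0.81 and 2.11 in KO replicates 1 to 3. It was -0.38, 0.26 and 0.15 in NT replicates. Of 16 tested fibroblast markers 15 had a positive log2 fold change, and DESeq2 called 7 higher (5.5% of all genes) and 0 lower (3.15%). The pluripotency list median was -0.10, -0.51 and -1.17 in KO clones and 0.11, -0.11 and 0.04 in NT clones. A positive log2 fold change was seen in 0 of the 10 pluripotency markers, and DESeq2 called 0 of them. Of 11 germ cell markers Nanos2 was at 0 in every library, and the sum was 106 to 236 CPM in KO clones and 198 to 259 CPM in NT clones. The germ cell list median was 0.11, -0.37 and -0.75 in KO replicates 1 to 3 and 0.087, -0.11 and -0.027 in NT replicates, with a positive log2 fold change in 2 of 10 tested markers. DESeq2 called 1 germ cell marker lower (3.15% of all genes) and 0 higher (5.5%). Nanos2 and Ddx4 are also in the list of other pathway genes described below. The part of these differences in the results below was not tested. Where a list median is set beside a gene below, it is a description only. In bulk RNA, fewer cells that express a gene and less RNA per cell cannot be told apart.

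Across the 10 genes, 5 changed in DESeq2 at an adjusted p under 0.05, in both directions. These 5 of 10 compare with 8.65% of all genes tested there. Gtsf1, Asz1 and Piwil2 fell, 3 of 10 where 3.15% of all genes fell, and Tdrkh and Tdrd1 rose, 2 of 10 where 5.5% rose. In edgeR's quasi-likelihood test, the main test, 0 of the 10 and 0% of 14664 genes passed. At an unadjusted p under 0.05, edgeR gave 3 lower members (10.8% of all genes) and 3 higher members (14%). Groups did not overlap for 6 members: 3 were lower in every KO clone (14.7% of all genes) and 3 were higher in every KO clone (14.8%). The median log2 fold change of the 10 was -0.16, against 0.0021 over all tested genes, and it was 0.069 without KO replicate 3. These genes were chosen with earlier results of these data known, and the shares are descriptions.

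**Figure D1:**
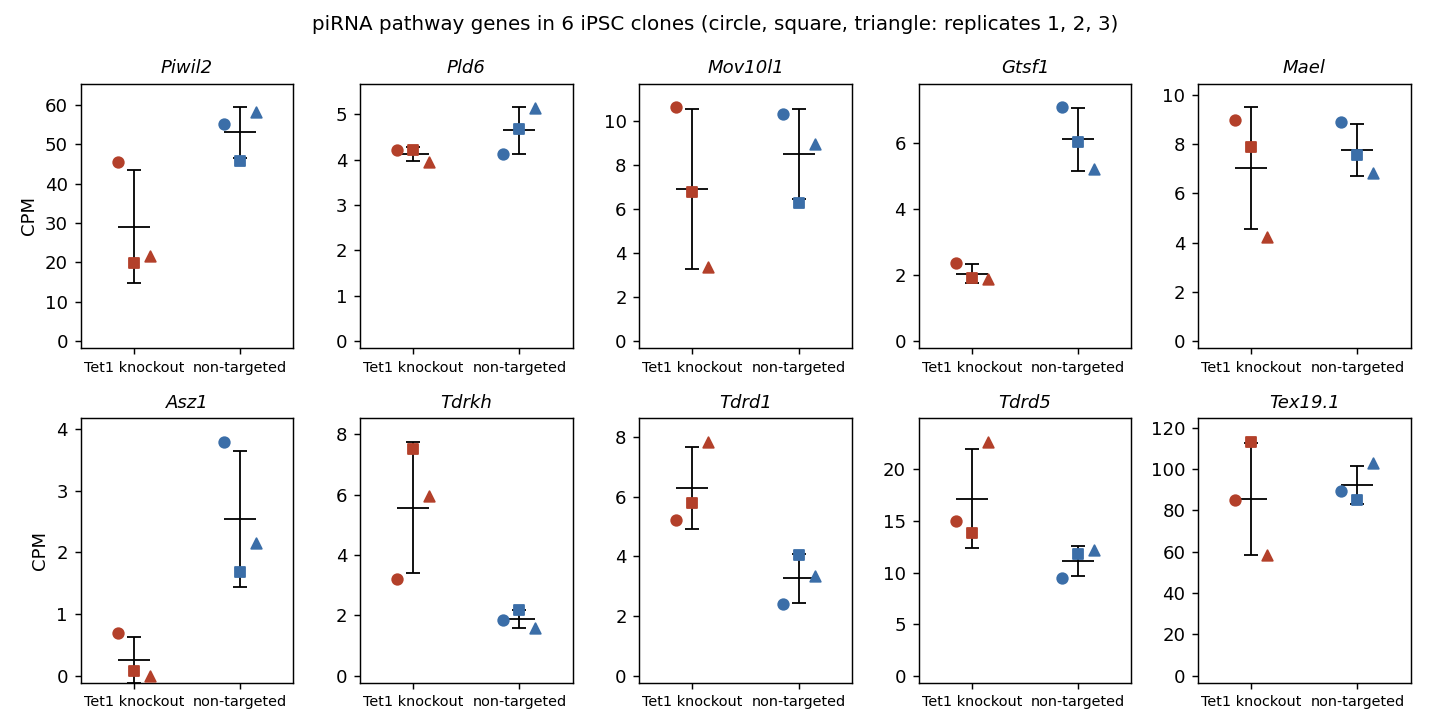
CPM of each of the 10 genes (vertical axes, each from 0) in the 3 Tet1 KO clones (red, left) and 3 NT clones (blue, right), with the group mean and SD as bars. Gtsf1 lies at 1.87 to 2.38 CPM in all KO clones and at 5.21 to 7.10 CPM in NT clones, while for Piwil2 KO replicate 1 (circle) lies beside NT replicate 2 (square).

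Levels of the 10 genes spanned a wide range. Per kilobase of exon, Tex19.1 was highest, with 45.7 CPM per kb in KO clones and 49.4 CPM per kb in NT clones, followed by Piwil2 at 5.49 CPM per kb in KO and 10.03 in NT clones. In KO and then NT clones, Mael lay at 4.05 and 4.47, Pld6 at 2.35 and 2.64, Mov10l1 at 1.66 and 2.04 and Tdrd5 at 2.47 and 1.605 CPM per kb. Gtsf1 stood at 1.47 CPM per kb in KO clones and 4.404 CPM per kb in NT clones, Tdrd1 at 1.15 in KO and 0.601 in NT clones, Tdrkh at 0.907 in KO and 0.306 in NT clones, and Asz1 at 0.0910 in KO and 0.899 in NT clones. In NT clones Mael and Gtsf1 lie within each other's spread, and Asz1, Tdrd1 and Tdrkh are the lowest of the 10. Reads were counted over whole gene bodies, introns included, so these levels are approximate.

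Piwil2 (MILI), the PIWI protein of this set and the one that cuts transposon transcripts in the cytoplasm, lies on chromosome 14 (70372480 to 70429094, minus strand). It had 45.5, 19.9 and 21.6 CPM in KO replicates 1 to 3, against 55.1, 45.8 and 58.2 CPM in NT replicates. Replicates 2 and 3 of the knockout were clearly lower, whereas replicate 1 fell just short of NT replicate 2. The log2 fold change was -0.87 ± 0.31 (SE; edgeR adjusted p = 0.155), and DESeq2 gave adjusted p = 0.0478. This call is close to the threshold. It was kept without KO replicate 1 (DESeq2 log2 fold change -1.36) and lost when any other single library was left out, with DESeq2 adjusted p between 0.0932 and 0.305. Relative to the NT mean, Piwil2 stood at -0.21, -1.40 and -1.28 in KO replicates 1 to 3. The pluripotency list median was -0.10, -0.51 and -1.17 in the same clones, and its part in the level of Piwil2 was not tested.

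Pld6 (Zucchini, MitoPLD), the mitochondrial nuclease that cuts piRNA precursors (chromosome 11, 59783897 to 59787645, minus strand), had 4.22, 4.22 and 3.95 CPM in KO clones and 4.12, 4.68 and 5.14 CPM in NT clones. Its groups overlapped and its log2 fold change was -0.17 ± 0.20 (edgeR adjusted p = 0.607; DESeq2 adjusted p = 0.739). Mov10l1, the RNA helicase that feeds precursors to that cut (chromosome 15, 88982909 to 89055152, plus strand), had 10.7, 6.78 and 3.38 CPM in KO clones and 10.3, 6.30 and 8.97 CPM in NT clones. KO replicate 1 lay just above all NT clones and replicate 3 well below them, with replicate 2 within their range. The log2 fold change of Mov10l1 was -0.30 ± 0.40 (edgeR adjusted p = 0.670) and 0.039 without KO replicate 3.

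Gtsf1 encodes a small zinc finger protein that binds PIWI proteins and is needed for their cutting of targets. The gene (chromosome 15, 103402405 to 103430470, minus strand) had 2.38, 1.90 and 1.87 CPM in KO clones, against 7.10, 6.05 and 5.21 CPM in NT clones. All 3 KO clones were close together and the gap to NT clones exceeded the spread within either group, with means of 2.05 ± 0.284 CPM in KO and 6.12 ± 0.946 CPM in NT clones (SD, n = 3 each). The mean in KO clones was 0.335 of that in NT clones. The log2 fold change was -1.57 ± 0.23 (edgeR adjusted p = 0.103; DESeq2 adjusted p = 0.000146). Of the 10 genes only Gtsf1 kept its DESeq2 call when each of the 6 libraries was left out in turn (adjusted p at most 0.0218), with a log2 fold change between -1.70 and -1.46 over all settings tried. It was also the 1 member to pass edgeR with no filter on low counts (adjusted p = 0.0401). Its 9 neighbours, up to the 5 nearest tested genes on each side, over 346 kb, had a median log2 fold change of -0.15.

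Mael, a protein of the nuage and nucleus required for transposon silencing in the male germline (chromosome 1, 166201201 to 166238747, minus strand), had 8.97, 7.86 and 4.24 CPM in KO clones and 8.88, 7.55 and 6.81 CPM in NT clones. KO replicate 3 was the lowest of the 6 clones, replicate 2 lay near the middle of the NT range and replicate 1 just above it. The log2 fold change of Mael was -0.14 ± 0.29 (edgeR adjusted p = 0.787), and 0.12 without KO replicate 3.

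Asz1 (GASZ) is an ankyrin-repeat scaffold on the outer mitochondrial membrane that holds the precursor-processing machinery. Its counts were 9, 1 and 0 in KO replicates 1 to 3 and 47, 27 and 31 in NT replicates, or 0.690, 0.0827 and 0 CPM in KO replicates against 3.79, 1.68 and 2.15 CPM in NT replicates. The count of 0 in KO replicate 3 allows a level of up to 0.216 CPM, taking 3 counts as the limit that covers counting error only. Every KO clone was lower than every NT clone, and the log2 fold change was -3.25 ± 0.84 (edgeR adjusted p = 0.116; DESeq2 adjusted p = 0.00805). The DESeq2 call was lost without KO replicate 2 (adjusted p = 0.0861), and DESeq2 gave no adjusted p without NT replicate 1 or 3. Its log2 fold change in edgeR was -5.73 without KO replicate 1, which leaves 1 and 0 counts in KO clones and is no bound on the fold, and lay between -3.49 and -2.65 without any other library.

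Asz1 lies on chromosome 6 (18050964 to 18109061, minus strand), where many genes were lower in KO replicates 2 and 3. In log2 CPM relative to the NT mean, the median of the 743 tested genes of chromosome 6 was 0.0078, -0.33 and -0.32 in KO replicates 1 to 3, while the medians of the other autosomes lay between -0.059 and 0.081 in replicates 2 and 3. The 5 nearest genes on each side with a mean above 4 on the log2 CPM scale spanned 11084 kb. Their medians were 0.09, -0.62 and -0.52 in the same clones, and all 10 were below 0 in replicates 2 and 3. Asz1 itself stood at -1.61, -3.48 and -4.12. In KO replicate 1 Asz1 was at -1.61 where the neighbour median was 0.09, and in replicates 2 and 3 it lay below the neighbour medians. These Asz1 values rest on 9, 1 and 0 counts, and the part of the chromosome 6 stretch in them was not tested. When the 5 nearest tested genes on each side were taken whatever their level, the medians were 0.22, 0.21 and 0.79. These 10 genes, among them Cav1 and Met, had mean levels from 0.84 CPM (Kcnd2) to 222 CPM (Capza2).

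**Figure D2:**
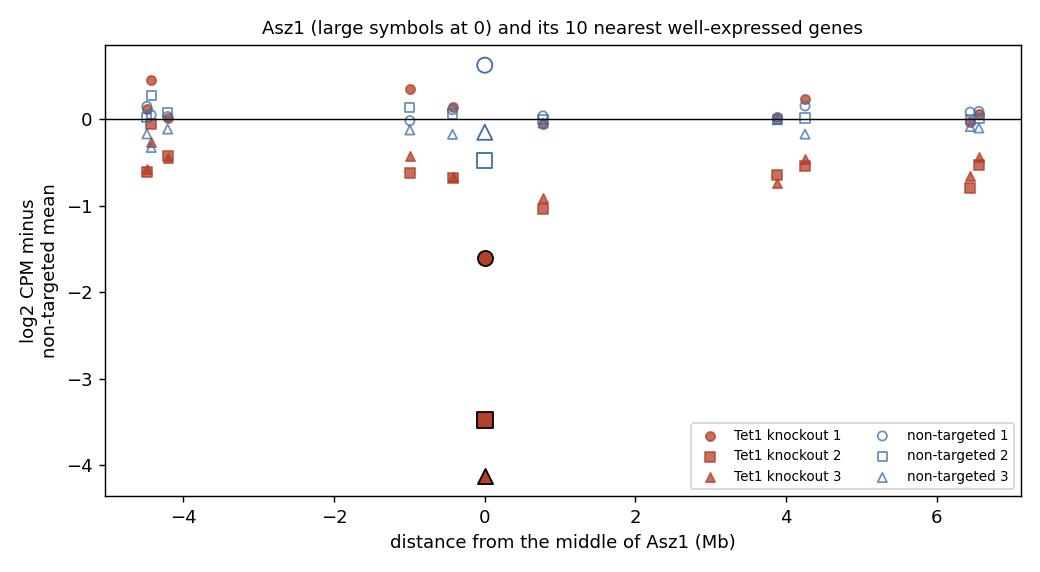
Log2 CPM minus the mean of NT clones (vertical axis) against distance from the middle of Asz1 (horizontal axis, Mb), in KO (filled red) and NT clones (open blue). Large symbols are Asz1 and small symbols the 5 nearest well-expressed genes on each side. KO replicates 2 and 3 lie below 0 at all 10 neighbours, replicate 1 does not, and Asz1 lies at -1.61 or lower in all 3.

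Tdrkh, a Tudor and KH domain protein on mitochondria that tethers PIWI proteins while piRNA ends are trimmed, went the other way. The gene (chromosome 3, 94413273 to 94434668, plus strand) had 3.22, 7.53 and 5.97 CPM in KO clones, against 1.86, 2.18 and 1.599 CPM in NT clones. Each KO clone was above each NT clone, with replicate 1 the nearest to them. The log2 fold change was 1.56 ± 0.35 (edgeR adjusted p = 0.109; DESeq2 adjusted p = 0.00614), a 2.96-fold higher mean. The DESeq2 call was kept without KO replicate 1 or NT replicate 2 and lost without any other library (adjusted p between 0.0748 and 0.130). A same-strand gene model, Gm42463 (94413401 to 94418286), covers 22.8% of the gene body. Reads from that stretch were not counted for either gene, and Gm42463 is at 0 in all 6 libraries. The 5 nearest tested genes on each side of Tdrkh had a median log2 fold change of 0.11.

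Tdrd1, a multi-Tudor protein that binds methylated arginines of Piwil2 in nuage (chromosome 19, 56826209 to 56870012, plus strand), had 5.21, 5.79 and 7.84 CPM in KO clones and 2.42, 4.06 and 3.34 CPM in NT clones. The groups did not overlap, and KO replicate 3 was the highest. The log2 fold change was 0.93 ± 0.27 (edgeR adjusted p = 0.127), and in DESeq2 the gene rose by a narrow margin (adjusted p = 0.0492). That call was lost with DESeq2's filtering set for a threshold of 0.1, and without any single library other than KO replicate 1 (adjusted p between 0.0654 and 0.343). Tdrd5, a Tudor protein needed for nuage assembly in spermatogenic cells (chromosome 1, 156255296 to 156303664, minus strand), had 14.95, 13.8 and 22.6 CPM in KO clones and 9.44, 11.8 and 12.2 CPM in NT clones. Its KO clones were also all higher, with replicate 3 again highest, but it did not pass (log2 fold change 0.62 ± 0.22; edgeR adjusted p = 0.159; DESeq2 adjusted p = 0.0989). For both genes the highest clone is the one with the highest fibroblast list median (2.11), while Tdrkh was highest in replicate 2 (fibroblast list median 0.81). Tdrd5 was lower in KO replicate 2 than in replicate 1, where the fibroblast list median was 0.68. The part of fibroblast RNA in the levels of these genes was not tested.

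Tex19.1, which limits retrotransposon activity in germ cells, placenta and pluripotent cells (chromosome 11, 121146143 to 121148319, plus strand), had 84.8, 113 and 58.6 CPM in KO clones and 89.5, 85.1 and 103 CPM in NT clones. The KO clones lay on both sides of the NT range. Its log2 fold change was -0.11 ± 0.22 (edgeR adjusted p = 0.773; DESeq2 adjusted p = 0.797), and 0.099 without KO replicate 3.

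The KO clones departed from the NT level to differing degrees, gene by gene. The median of the 10 genes is signed, so rises and falls offset each other in it. In KO replicate 2, single genes ranged from -3.48 (Asz1) to 1.93 (Tdrkh) relative to the NT mean. The median of the 10 was 0.048, -0.050 and -0.75 in KO replicates 1 to 3, with 0.028, -0.017 and 0.078 in NT replicates. The germ cell list median was likewise lowest in KO replicate 3 (-0.75), and its part in the members' levels was not tested. Gtsf1 departed by similar amounts in all 3 KO clones (-1.30, -1.60 and -1.63). Piwil2 departed mainly in replicates 2 and 3 (-0.21, -1.40 and -1.28), and Mov10l1 and Mael mainly in replicate 3 (-1.27 and -0.84 there). Without KO replicate 1, edgeR called 6 members, Gtsf1, Asz1 and Piwil2 lower and Tdrkh, Tdrd1 and Tdrd5 higher, where 14% of all genes were called lower and 15.1% higher.

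**Figure D3:**
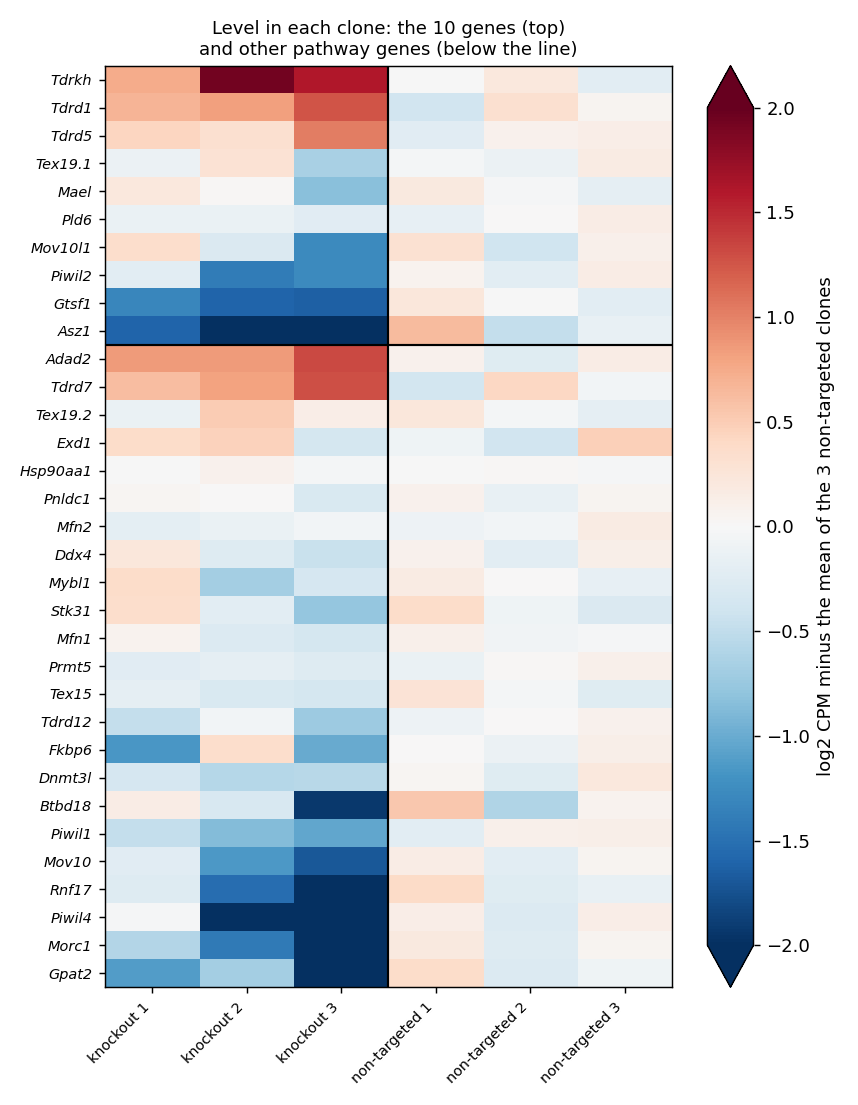
Log2 CPM minus the mean of the 3 NT clones (colour, cut at -2 and 2) for the 10 genes (top block) and 23 other tested genes of the pathway (bottom block), in KO replicates 1 to 3 (left) and NT replicates 1 to 3 (right). Gtsf1 and Asz1 are low in all 3 KO clones, while Piwil2, Piwil4 and Rnf17 are low mainly in replicates 2 and 3.

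Other genes of the pathway were taken from a list of 31. Of these, 30 had a count and 23 were tested; Tdrd6, Tdrd9, Spocd1, Henmt1, Dnmt3c, Morc2b, Wdr77 and Nanos2 were too low, and Wdr77 lies for 98.7% of its body within another gene model on its strand, which removes its reads. Of the 23 tested genes 18 had a negative log2 fold change, with a median of -0.23 against 0.0021 over all tested genes. In edgeR 0 passed, in 8 of the 23 an unadjusted p was under 0.05 with a lower level (10.8% of all genes) and in 2 with a higher level (14%). In DESeq2 4 fell (3.15% of all genes) and 1 rose (5.5%). In 7 of the 23 genes every KO clone was lower (14.7% of all genes) and in 2 every KO clone was higher (14.8%).

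Morc1, an ATPase that represses retrotransposons in male germ cells, fell in DESeq2, with 97.3, 55.0 and 31.5 CPM in KO clones and 169, 123 and 152 CPM in NT clones (log2 fold change -1.27 ± 0.36 in edgeR with adjusted p = 0.125; DESeq2 adjusted p = 0.00643). Gpat2, a mitochondrial acyltransferase-like protein that binds Piwil2, had 4.14, 5.71 and 1.65 CPM in KO clones, against 11.9, 7.55 and 8.69 CPM in NT clones (-1.29 ± 0.42; DESeq2 adjusted p = 0.0313). The groups of both genes were separate, with KO replicate 3 the lowest. Mov10, the broadly expressed relative of Mov10l1, had 178, 93.9 and 64.3 CPM in KO clones and 232, 180.5 and 217 CPM in NT clones (-0.91 ± 0.33; DESeq2 adjusted p = 0.0463). Dnmt3l, the cofactor through which piRNA-guided methylation is laid down in male germ cells, also fell in DESeq2, with 397, 336 and 339 CPM in KO clones and 513, 421 and 579 CPM in NT clones (-0.50 ± 0.13; DESeq2 adjusted p = 0.0235). Adad2, an RNA-binding protein of male germ cell granules, rose to 5.75, 5.71 and 7.98 CPM in KO clones, against 3.31, 2.62 and 3.48 CPM in NT clones (1.05 ± 0.23; DESeq2 adjusted p = 0.0143).

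Each of these 5 calls was lost when some single libraries were left out. Without NT replicate 1, DESeq2 adjusted p was 0.115 for Morc1, 0.284 for Gpat2, 0.272 for Mov10, 0.183 for Dnmt3l and 0.103 for Adad2. Without NT replicate 3 it was 0.111, 0.207, 0.269, 0.256 and 0.104 for the same genes. Without KO replicate 2 Gpat2 was still called, and Morc1 (0.0782), Mov10 (0.254), Dnmt3l (0.176) and Adad2 (0.0669) were not. Without KO replicate 3 only Morc1 was still called, and Gpat2 (0.109), Mov10 (0.188), Dnmt3l (0.140) and Adad2 (0.182) were not. Without NT replicate 2 Morc1 and Dnmt3l were still called, and Gpat2 (0.0700), Mov10 (0.0880) and Adad2 (0.102) were not.

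The other PIWI genes lay below Piwil2 in level, with 1.69 CPM per kb of exon for Piwil4 and 0.308 for Piwil1 in NT clones. Piwil4 (MIWI2), the nuclear PIWI protein, had 8.89, 1.82 and 2.01 CPM in KO clones, against 9.93, 7.49 and 9.94 CPM in NT clones, so KO replicate 1 fell among NT clones (log2 fold change -1.10 ± 0.57; DESeq2 adjusted p = 0.183). Piwil1 (MIWI), the PIWI protein of later spermatogenesis, had 0.920, 0.662 and 0.575 CPM in KO clones, against 1.13, 1.43 and 1.46 CPM in NT clones. Every KO clone was lower, but it did not pass (log2 fold change -0.90 ± 0.33; edgeR adjusted p = 0.161; DESeq2 adjusted p = 0.300). The Tudor genes outside the 10 did not share a direction: Tdrd7 had a log2 fold change of 0.94 ± 0.32, Tdrd12 -0.40 ± 0.17 and Rnf17 (Tdrd4) -1.09 ± 0.42, none past DESeq2's threshold (adjusted p = 0.136, 0.160 and 0.193). Ddx4, the germ cell helicase of nuage, had 32.6, 23.3 and 20.5 CPM in KO clones and 29.7, 24.1 and 30.5 CPM in NT clones, and the trimming exonuclease Pnldc1 averaged 30.7 ± 3.95 CPM in KO and 32.6 ± 2.88 CPM in NT clones (SD, n = 3 each). Neither passed a test.

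**Figure D4:**
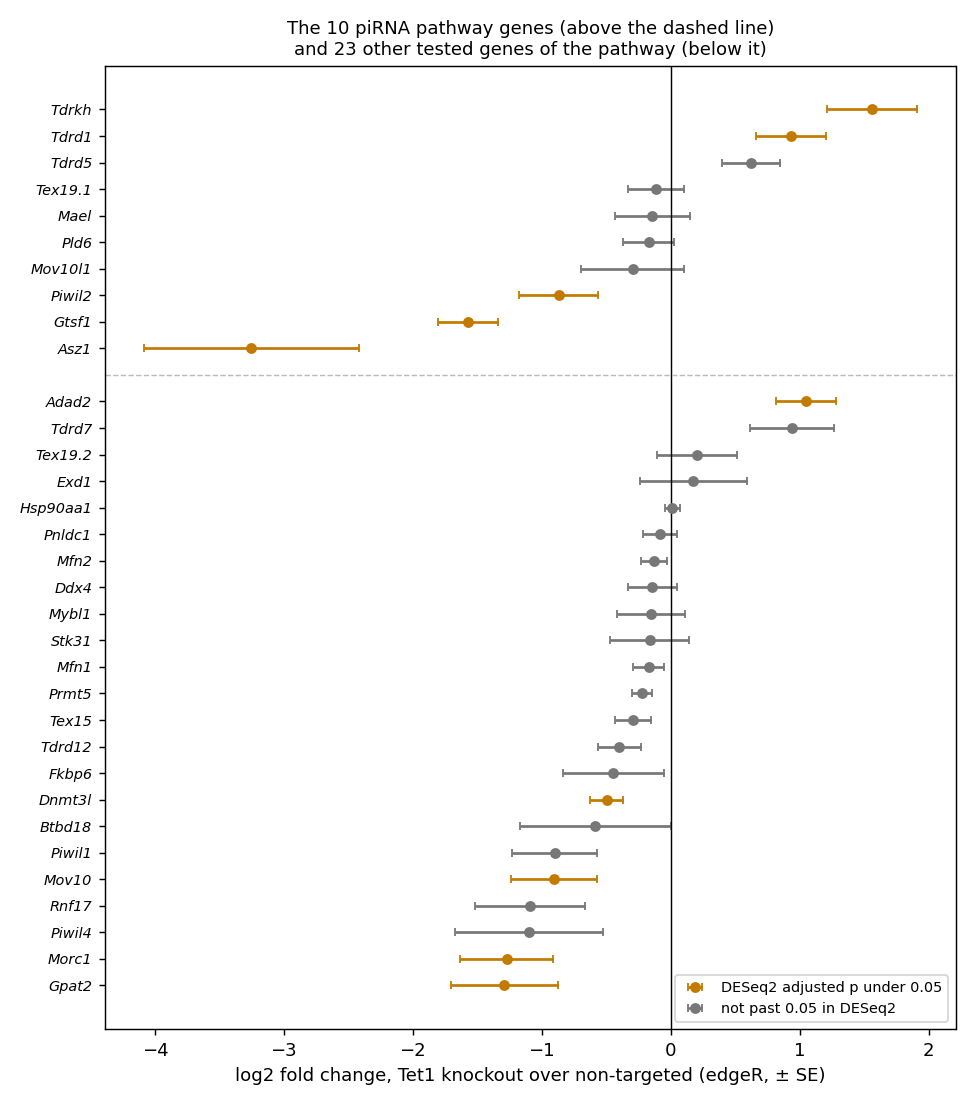
Log2 fold change of Tet1 KO over NT clones (edgeR, bars are SE) for the 10 genes (above the dashed line) and the 23 other tested genes of the pathway (below it), in orange where DESeq2's adjusted p is under 0.05. Values reach from -3.25 for Asz1 to 1.56 for Tdrkh among the 10, and 18 of the 23 others lie below 0.

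Genes with the most similar pattern over the 6 libraries were found by Euclidean distance in log2 CPM relative to the NT mean, among genes within 2-fold of the member's mean CPM. For Gtsf1 the nearest of 2818 genes were Tmprss11f, Tex21 and 4930432K21Rik (distances 0.56, 0.62 and 0.68). For Tdrkh they were Hebp2, Emilin3 and Grin2d among 2814 genes (0.38, 0.40 and 0.48). For Asz1 they were Pdha2, Gm15262 and 1700019B21Rik among 2809 genes (1.11, 1.183 and 1.39). In KO replicates 2 and 3 Asz1 and these matches lay at 0 to 0.165 CPM, so their distances rest on levels near 0.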

How the data were processed

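The authors deposited raw counts of reads per gene for 6 libraries. The submitters' processing notes name HISAT2 2.1.0, featureCounts 1.5.3, DESeq2 1.18.1 and the mm10 build. Per the file headers, featureCounts 1.6.2 counted reverse-stranded reads over whole gene bodies of GENCODE M15, leaving out reads with several alignments or several genes. Genes passing filterByExpr (minimum count 10, minimum total 15) were scaled with TMM and compared by edgeR's quasi-likelihood test (4.0.16; group as the only term), with Benjamini-Hochberg adjustment over all tested genes at 0.05. DESeq2 (1.42.0) and limma voom (3.58.1), in R 4.3.3, were alternatives, beside other scaling, filters and left-out libraries. SE came from the fold change and F. Relative log2 CPM used a prior count of 2. Exon lengths came from GENCODE M21 on the same build and promoters from RefSeq; for 11 of 12 windows the bases after the start were found in a GENCODE transcript. The fits were tested on simulated data. The 10 genes and all lists were chosen with earlier results of these data known. The text names all 10 genes, Tet1 and the other pathway genes called; further pathway genes were named for their role after their values were seen. The chromosome 6 medians and the well-expressed neighbours of Asz1 were also added then. Libraries of a group differed by more than sampling noise, and KO clones more than NT clones. Chi-square per degree of freedom was 12.2 to 43.4 between pairs of KO clones and 7.76 to 11.4 between pairs of NT clones.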

Additional observations from a re-analysis of the deposited data

How the results depend on the processing

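Over all tested genes edgeR called 0 (1585 lower and 2055 higher at an unadjusted p under 0.05); other settings called 1232 (DESeq2), 1210 (DESeq2 with filtering for 0.1, added after seeing the data), 159 (no filter), 3 (replicate block) and 1 (limma voom). Members called numbered 5 in DESeq2, 4 with filtering for 0.1 and 1 with no filter, and other pathway genes 5 in both DESeq2 settings. Leaving out each library in turn gave 0 to 4404 genes, 0 to 6 members and 0 to 9 other genes in edgeR. In DESeq2 it gave 4106, 306 and 265 genes without KO replicates 1, 2 and 3 and 183, 763 and 128 without NT replicates 1, 2 and 3. Members then numbered 6, 1 and 2 without the KO replicates and 1, 3 and 1 without the NT replicates, and other genes 8, 3 and 1 without the KO replicates and 0, 2 and 0 without the NT replicates. The member median ranged from -0.28 to 0.069 in edgeR, and in DESeq2 was -0.28, -0.26 and 0.058 without KO replicates 1, 2 and 3. That of the other genes ranged from -0.36 to -0.17 in edgeR and -0.36 to -0.13 in DESeq2. Without KO replicate 3, Mael, Mov10l1 and Tex19.1 turned positive (0.12, 0.039 and 0.099 in edgeR; 0.11, 0.028 and 0.088 in DESeq2), against lowest edgeR values, over the left-out libraries, of -0.37 and -0.76 for Mael and Mov10l1 (without KO replicate 1) and -0.36 for Tex19.1 (without KO replicate 2); the cause was not tested. The other 7 members kept their direction in all 20 settings. RLE scaling, the strict filter and edgeR's newer method called 0 members. Same-numbered clones correlated at 0.46, 0.11 and -0.024, so the numbers were not taken as pairs, and the replicate block called 0 members. Asz1, at 0 to 9 counts in KO clones, is limited by depth.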
